A study of Mus musculus with 6 samples.

Results

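The tumor necrosis factor (TNF) receptor superfamily was followed here through 9 of its genes: Tnfrsf1a, Tnfrsf21, Tnfrsf10b, Fas, Tnfrsf1b, Ltbr, Tnfrsf12a, Tnfrsf9 and Tnfrsf11b. Each was taken by its gene name from the count tables, in which it is 1 of 34745 genes. The tables come from 889 cells, a murine lung cancer cell line labelled as C57BL/6 lung. RNA was sequenced from 3 libraries of cells given a control sgRNA (sg-con) and from 3 libraries of cells given sgRNA against kiaa1522 (sg-kiaa1522), and no library was treated with TNFα according to the labels. In both groups, Cas9 and the sgRNA were delivered by lentivirus, and the control vector carried an sgRNA against EGFP. The methods do not state whether the sequenced cells were clones, which of the kiaa1522 sgRNAs they carried or how long they were cultured, and the labels do not say that the libraries came from separate cultures, so the p-values measure only the spread between these libraries.

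Receptors of this family bind trimeric ligands through cysteine-rich repeats outside the cell. A first class carries a cytoplasmic death domain, which can recruit caspase-8 and start apoptosis, as Fas and the TRAIL receptor do. Another class, without a death domain, binds TRAF adaptors and passes the signal to IκB kinase and NFκB, and a few members are decoys that hold a ligand without signaling. The classes share outputs: Tnfrsf1a (TNFR1), listed below with the death domain receptors, also activates NFκB on binding TNFα, as the paper states. Epithelial and tumor cells can meet TNFα, TRAIL or Fas ligand from immune cells around them.

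The libraries held between 12220001 and 18609376 counts, with sg-kiaa1522 replicate 1 the shallowest. The mRNA of the targeted gene (listed as C77080) was 127 ± 2.93 TMM CPM (counts relative to the library total, scaled by TMM) in the sg-con libraries and 210 ± 6.38 TMM CPM in the sg-kiaa1522 libraries (SD, n = 3), so its level goes against a loss of mRNA and the groups are named by their labels: every direction below is for the libraries labelled sg-kiaa1522. Among markers of lung epithelium, Krt8 and Krt18 were abundant while Epcam had 0 counts in every library. The summed level of the 10 epithelial markers lay between 4024 and 4747 TMM CPM in the sg-con libraries and between 3429 and 3648 TMM CPM in the others, and 5 of the 8 that were tested fell, where 26.3% of all tested genes did (adjusted p of at most 0.05, the test described below). Nkx2-1, a marker in this list, had 55.7, 59.1 and 13.6 TMM CPM in sg-con and 10.9, 9.49 and 39.5 TMM CPM in sg-kiaa1522. In its level, replicate 3 of each group stood apart from its own group. The 9 stromal markers summed to between 467 and 486 TMM CPM against between 167 and 198 TMM CPM, most of it Col1a2, while Thy1 had 0 counts in every library. The 5 macrophage markers summed to between 1.29 and 2.3 TMM CPM against between 10.1 and 13 TMM CPM. That rise was carried by Cd68, with Adgre1 at 0 counts in every library. The part of these shifts in the receptor values was not tested, and in bulk RNA fewer cells expressing a gene cannot be told apart from less RNA per cell.

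Promoter sequences of 7 of the 9 genes were matched by symbol in RefSeq (GRCm38.p6); Tnfrsf10b and Tnfrsf11b were not. In the 250 bases before each start, on both strands, 2 motifs were searched: the κB consensus to which NFκB dimers bind, and the AP-1 motif TGANTCA, a palindrome. Among all 32851 RefSeq promoters of this length, 7.25% held a κB match, 6.75% held an AP-1 match and 0.356% held both. Of the 8 promoters of the members, 1 held both. It is the second start of Tnfrsf9, the member with the largest fall, at chr4:150927749-150927998. Its κB match, GGGGATTTCCC, begins 43 bases before the start and lies in the first exon of another annotated transcript of the gene in GENCODE M21. An AP-1 match, TGAGTCA, begins 15 bases before the same start and lies in the same exon. The promoters of Tnfrsf1a and Tnfrsf12a also overlap a first exon of their gene in GENCODE M21. Fas held an AP-1 match 211 bases before its start, and the other 6 promoters held neither motif. The sequences below show the κB match with its flanks, the first Tnfrsf9 start, the promoter of the silent Fas gene and that of Tnfrsf1b (TNFR2), a receptor of TNFα. Capitals mark the motif matches, which are a description of these letters and not binding sites.
Tnfrsf9, second start, chr4:150927947-150927976, plus strand: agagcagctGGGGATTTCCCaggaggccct
Tnfrsf9, first start, chr4:150919905-150920154, plus strand: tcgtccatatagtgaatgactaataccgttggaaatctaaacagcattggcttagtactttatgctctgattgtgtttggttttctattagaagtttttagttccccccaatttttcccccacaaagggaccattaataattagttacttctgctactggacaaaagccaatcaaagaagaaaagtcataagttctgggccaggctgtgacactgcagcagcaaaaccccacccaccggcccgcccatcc
Fas, chr19:34290409-34290658, plus strand: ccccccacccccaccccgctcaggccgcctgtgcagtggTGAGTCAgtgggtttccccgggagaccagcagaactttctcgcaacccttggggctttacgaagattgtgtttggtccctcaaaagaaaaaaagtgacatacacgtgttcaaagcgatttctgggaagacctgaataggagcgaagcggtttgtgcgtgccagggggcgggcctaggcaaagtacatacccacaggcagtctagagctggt
Tnfrsf1b, chr4:145246871-145247120, minus strand: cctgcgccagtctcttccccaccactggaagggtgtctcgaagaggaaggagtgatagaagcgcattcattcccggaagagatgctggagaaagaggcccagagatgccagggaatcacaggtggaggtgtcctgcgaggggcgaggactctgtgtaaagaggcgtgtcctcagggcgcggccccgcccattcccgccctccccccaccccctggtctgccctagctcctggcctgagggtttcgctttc

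To compare the members with one another, counts were divided by exon length and scaled to the same total in each library (TPM). Tnfrsf12a (Fn14, the receptor of TWEAK) was by far the most abundant in the sg-con libraries, at 520 ± 49.5 TPM, which was 57.7% of the summed TPM of the 9 genes. It was followed by Tnfrsf1a (TNFR1, the main receptor of soluble TNFα) at 145 ± 1.02 TPM, Ltbr (the lymphotoxin β receptor) at 113 ± 9.05 TPM and Tnfrsf21 (death receptor 6) at 87.6 ± 3.94 TPM (SD, n = 3). Much lower were Tnfrsf10b (the mouse TRAIL death receptor) at 19.8 ± 1.39 TPM, Tnfrsf1b (TNFR2, best activated by membrane-bound TNFα) at 10.6 ± 0.734 TPM and Tnfrsf9 (4-1BB, a costimulatory receptor best known from T cells) at 3.55 ± 0.321 TPM (SD, n = 3). No neighbors in this order overlapped in TPM, apart from the last pair, Tnfrsf11b (osteoprotegerin) and Fas, which were both close to 0. TNFR1 RNA was thus more abundant per length than TNFR2 RNA in every library. In the sg-kiaa1522 libraries the order of the first 5 genes was the same, Tnfrsf11b came in sixth at 14.7 ± 1.4 TPM (SD, n = 3), above TNFR2, and its values overlapped those of Tnfrsf10b at 15 ± 1.39 TPM (SD, n = 3). With the mean transcript length in place of the exon length, TNFR2 and Tnfrsf11b exchanged places in these libraries.

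**Figure D1:**
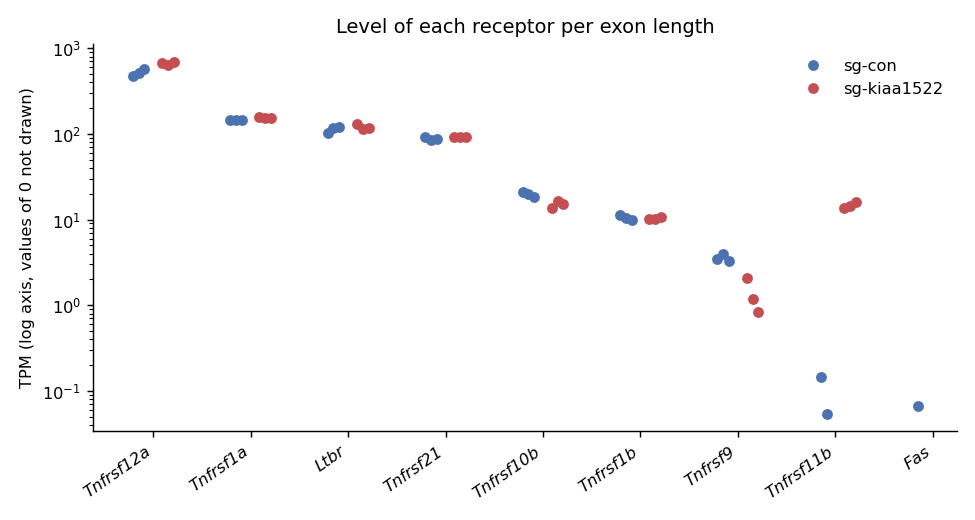
TPM of each receptor (log axis) in the 3 sg-con libraries (blue) and the 3 sg-kiaa1522 libraries (red), 1 point per library, with values of 0 left out. Tnfrsf12a lies highest at 520 and 671 TPM on average, and only Tnfrsf11b moves by more than a decade between the groups.

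Changes between the groups were tested on counts with edgeR's quasi-likelihood test over the 10046 genes that had more than 500 counts in all, and all adjusted p-values are Benjamini-Hochberg values over these genes. The adjusted p was at most 0.05 for a fall in 26.3% of these genes and for a rise in 26.3%, and a further demand of 1 or more log2 units left 4.34% falling and 2.74% rising. Of the 9 members, 7 passed the count filter. Tnfrsf11b passed it only through the group in which it is high, so its call is not read as a result. Of the other 6, 1 was lower (Tnfrsf10b), 1 was higher (Tnfrsf12a) and 4 were not called, and with so many genes called in each direction these counts do not set the members apart from other genes. The median log2 fold change of the 7 members that passed, Tnfrsf11b included, was -0.0049, against -0.01 over all tested genes. No exon of a member overlaps an exon of another gene in GENCODE M21.

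**Figure D2:**
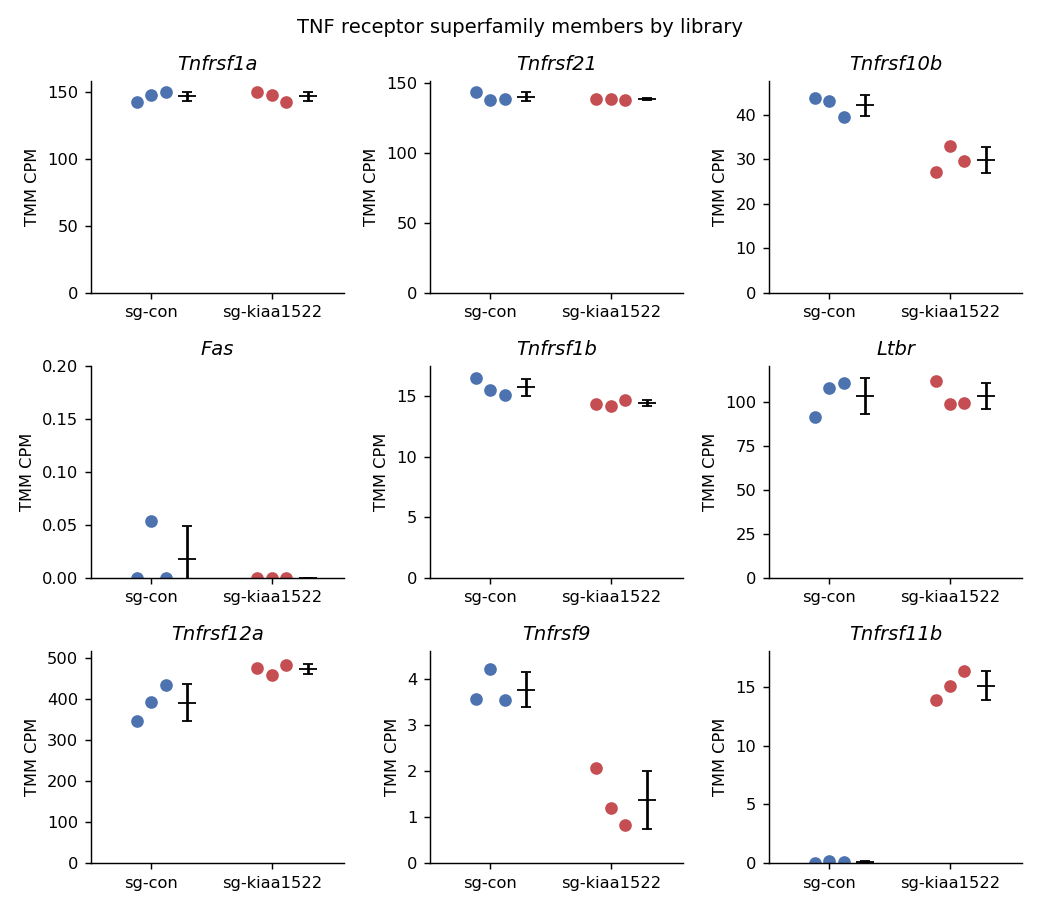
TMM CPM of the 9 receptors, 1 panel per gene with its own axis from 0, 1 point per library (blue sg-con, red sg-kiaa1522), and the mean with SD beside the points (n = 3). Tnfrsf1a, Tnfrsf21 and Ltbr overlap between the groups, Tnfrsf10b, Tnfrsf1b and Tnfrsf9 lie lower and Tnfrsf12a and Tnfrsf11b higher in every sg-kiaa1522 library, as do 31.1% (lower) and 30.6% (higher) of tested genes.

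The largest difference was in the decoy of the group. Tnfrsf11b (ENSMUSG00000063727, chromosome 15 from 54250619 to 54278484) encodes osteoprotegerin, a secreted receptor without a membrane anchor that captures RANKL and TRAIL and is best known from bone. Its RNA gave 0, 3 and 1 counts in the sg-con libraries and 169, 277 and 279 counts in the sg-kiaa1522 libraries. On the TMM CPM scale these are 0, 0.162 and 0.06 against 13.9, 15.1 and 16.4. Every sg-con library was at or under a floor of 3 counts while every sg-kiaa1522 library was far above it, and the groups did not overlap, as in 30.6% of the tested genes in this direction. With each sg-con library set to at least 3 counts, the level was at least 88.5-fold higher in the sg-kiaa1522 libraries. The bound lay between 84.7 and 92.1 with any one library left out. This gene was listed for its on/off pattern, so its difference is described without a test. It was the only gene in the tables with at most 3 counts in each sg-con library and at least 100 counts in each sg-kiaa1522 library, limits that were chosen after its values were seen. It made up at most 0.0162% of the summed TPM of the 9 genes in an sg-con library and between 1.23% and 1.47% in an sg-kiaa1522 library.

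By the correlation of log2 TMM CPM over the 6 libraries, the tested genes most like Tnfrsf11b were Sel1l, an adaptor of protein degradation at the endoplasmic reticulum (Pearson's r = 0.9990), Wdr5 (r = 0.9986), a subunit of histone methyltransferase complexes, and Fxr2 (r = 0.9984), an RNA-binding protein. Each separates the same groups, as any gene that differs between them would, and none was silent in the sg-con libraries. Sel1l, for example, had 1458, 1939 and 1575 counts there and 2657, 3973 and 3787 counts in the sg-kiaa1522 libraries, a log2 fold change of 1.22.

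The partners of osteoprotegerin were scarce. Its bone ligand RANKL (Tnfsf11) had 0, 1 and 0 counts in the sg-con libraries and 13, 11 and 14 counts in the sg-kiaa1522 libraries, at least 4.86-fold higher with the same floor, but with too few counts in all for the test. RANK (Tnfrsf11a), the signaling receptor of RANKL, had 0 counts in every library. TRAIL (Tnfsf10), the other ligand, had at most 3 counts in any library.

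Of the receptors with a death domain, Tnfrsf10b fell, Tnfrsf1a and Tnfrsf21 did not pass the test and Fas was close to 0 throughout. Tnfrsf10b (ENSMUSG00000022074, chromosome 14 from 69767472 to 69784411), the receptor through which TRAIL kills mouse cells and a known target of p53, had 43.7, 43.2 and 39.4 TMM CPM in the sg-con libraries and 27.1, 33 and 29.5 TMM CPM in the sg-kiaa1522 libraries. All 3 values of the second group were lower than those of the first, and groups failed to overlap in this direction in 31.1% of the tested genes. The log2 fold change was -0.49 (95% interval from -0.72 to -0.27, adjusted p = 0.0042, edgeR's quasi-likelihood test). Chromosome 14, on which it lies, had a median log2 fold change of -0.38 over its 343 tested genes, and with that median removed the value for Tnfrsf10b was -0.11.

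Tnfrsf1a (TNFR1, ENSMUSG00000030341, chromosome 6 from 125349362 to 125362484) had 143, 148 and 150 TMM CPM in the sg-con libraries and 150, 148 and 143 TMM CPM in the sg-kiaa1522 libraries. The groups covered the same range on this scale. In TPM, which TMM does not scale, Tnfrsf1a was at 145, 144 and 147 in sg-con and at 157, 154 and 154 in sg-kiaa1522. The 95% interval of its log2 fold change, from -0.13 to 0.13, was narrow around 0 beside the fold threshold of 1 (adjusted p = 0.99, edgeR's quasi-likelihood test). Tnfrsf21 (ENSMUSG00000023915, chromosome 17 from 43016555 to 43089189), a receptor of the amyloid precursor protein in neurons, had 144, 138 and 139 against 139, 139 and 138 TMM CPM. These groups overlapped as well, with a log2 fold change of -0.018 and an interval from -0.14 to 0.11 (adjusted p = 0.8, edgeR's quasi-likelihood test). Fas (ENSMUSG00000024778, chromosome 19 from 34290666 to 34327772), the receptor of Fas ligand, gave 1 count in sg-con replicate 2 and 0 counts in the other 5 libraries. Both groups were under the floor of 3 counts, which is 0.162 to 0.247 CPM in these libraries, so no change could be detected at this depth. Its ligand (Fasl) had at most 4 counts in any library.

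TRAIL has further receptors in the mouse, Tnfrsf22 and Tnfrsf23, which are decoys without a death domain. Both rose, as did 26.3% of all tested genes, and in 30.6% of them the groups did not overlap in this direction. Tnfrsf22 had 140, 138 and 120 TMM CPM in the sg-con libraries and 211, 212 and 196 TMM CPM in the sg-kiaa1522 libraries, with a log2 fold change of 0.64 (adjusted p = 0.00051, edgeR's quasi-likelihood test). Tnfrsf23 went from 73.9, 65.8 and 58.5 TMM CPM to 114, 113 and 108 TMM CPM, with a log2 fold change of 0.76 (adjusted p = 0.00051, edgeR's quasi-likelihood test). These are neighboring paralogs of similar sequence, and the unique mapping of the authors could divide their reads unevenly. In TPM, the decoys together were 6.22 ± 0.247 times as abundant as Tnfrsf10b in the sg-con libraries and 14.2 ± 1.5 times in the sg-kiaa1522 libraries (SD, n = 3). This ratio was computed after these genes were seen to differ, so its separation of the groups follows from theirs, and its exact permutation p of 0.1 (two-sided, the lowest possible) is void as a test. By library the ratio was 6.47, 6.22 and 5.97 in sg-con and 15.9, 13.1 and 13.6 in sg-kiaa1522.

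**Figure D3:**
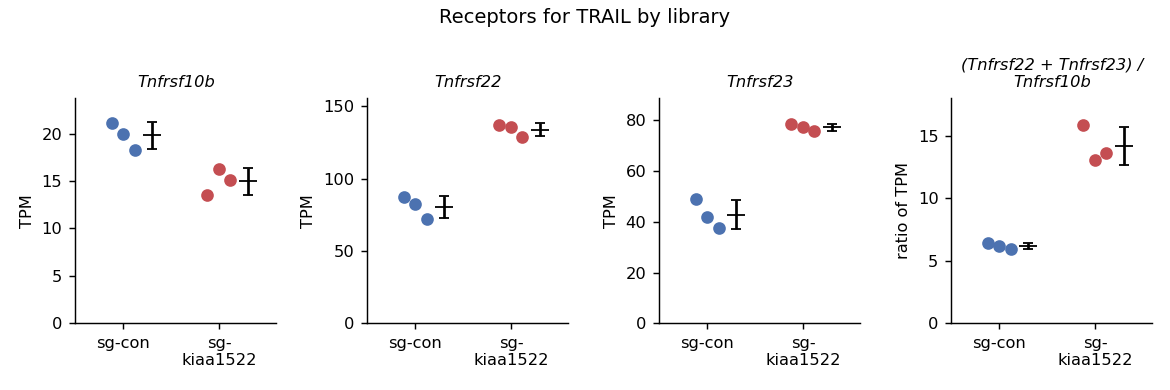
TPM of the TRAIL death receptor Tnfrsf10b, of the decoys Tnfrsf22 and Tnfrsf23, and the ratio of the summed decoys to Tnfrsf10b, 1 point per library (blue sg-con, red sg-kiaa1522) with mean and SD (n = 3) and axes from 0. The ratio is 6.22 on average in sg-con and 14.2 in sg-kiaa1522, which follows from the panels of the single genes, where the groups do not overlap (30.6% of tested genes in the higher and 31.1% in the lower direction, in TMM CPM).

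Of the receptors without a death domain that signal through TRAF adaptors, Tnfrsf12a rose, close to the threshold, Tnfrsf1b and Ltbr did not pass the test and Tnfrsf9 had too few counts for it. Tnfrsf12a (ENSMUSG00000023905, chromosome 17 from 23675445 to 23677468), which growth factors and tissue injury induce, had 347, 394 and 436 TMM CPM in the sg-con libraries and 477, 460 and 484 TMM CPM in the sg-kiaa1522 libraries. The sg-con libraries spread widely, but all lay below the other group, as in 30.6% of the tested genes. The log2 fold change was 0.27 (95% interval from 0.07 to 0.47, adjusted p = 0.031, edgeR's quasi-likelihood test). This call is close to the threshold. In edgeR's quasi-likelihood fits with a library left out, its adjusted p was 0.089 without sg-con replicate 2, 0.078, 0.06 and 0.09 without sg-kiaa1522 replicates 1, 2 and 3, and the log2 fold change was 0.18 without sg-con replicate 1. TWEAK (Tnfsf12), its ligand, was listed at 8.61, 15.7 and 13.9 against 7.58, 8.51 and 7.89 TMM CPM. It shares 48.3% of its exon length with a read-through gene on the same strand, and its fall of 0.67 on the log2 scale (adjusted p = 0.034, edgeR's quasi-likelihood test) lost the call without sg-con replicate 2 (adjusted p = 0.11), sg-con replicate 3 (0.089) or any sg-kiaa1522 library (0.07 to 0.09) in the same test.

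Tnfrsf1b (TNFR2, ENSMUSG00000028599, chromosome 4 from 145213463 to 145246870) had 16.5, 15.5 and 15.1 TMM CPM in the sg-con libraries and 14.3, 14.2 and 14.7 TMM CPM in the sg-kiaa1522 libraries. The groups did not overlap on this scale, as in 31.1% of the tested genes in this direction. TPM is not scaled by TMM and was higher in sg-kiaa1522 for Tnfrsf1a, whose TMM CPM was level. In TPM the Tnfrsf1b groups overlapped, at 10.6 ± 0.734 and 10.3 ± 0.345 (SD, n = 3). Its log2 fold change of -0.12 did not pass the test (95% interval from -0.34 to 0.09, adjusted p = 0.3, edgeR's quasi-likelihood test), so a level of 0.791 times that of sg-con remains within the interval. Ltbr (ENSMUSG00000030339, chromosome 6 from 125306571 to 125313885), which activates the alternative NFκB pathway, had 92, 108 and 111 against 112, 99.3 and 99.8 TMM CPM. Here the groups overlapped, and the log2 fold change was -0.0049 (interval from -0.22 to 0.21, adjusted p = 0.97, edgeR's quasi-likelihood test). Ltbr and Tnfrsf1a lie close together on chromosome 6 and neither was called, and Cd27, a further receptor of the family nearby (from 125232622 to 125237010), had at most 1 count in any library.

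Tnfrsf9 (4-1BB, ENSMUSG00000028965, chromosome 4 from 150914562 to 150946102) had 62, 78 and 59 counts in the sg-con libraries and 25, 22 and 14 counts in the sg-kiaa1522 libraries, too few in all to be tested with the main filter. In TMM CPM these are 3.56, 4.21 and 3.54 against 2.06, 1.2 and 0.825. Every sg-kiaa1522 value lay below every sg-con value, as in 31.1% of the genes tested with the main filter, and the mean was 2.77-fold lower (p = 0.1 by exact permutation, two-sided, the lowest that 3 libraries against 3 can give). When genes with at least 10 counts in all were tested, its log2 fold change was -1.51 (95% interval from -2.19 to -0.82, adjusted p = 0.0043 over 14301 genes, edgeR's quasi-likelihood test), and at an adjusted p of at most 0.05 22.4% of those genes were lower and 22.3% higher (6.61% and 5.53% with the fold threshold). Its ligand 4-1BBL (Tnfsf9) went from 6.81 ± 0.8 to 5.46 ± 0.34 TMM CPM (SD, n = 3), and its log2 fold change of -0.32 did not pass (adjusted p = 0.094, edgeR's quasi-likelihood test). Tnfsf9 shares 14.9% of its exon length with a lincRNA on the other strand, which had 313 counts in all. The use of strand in the counting is not given.

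**Figure D4:**
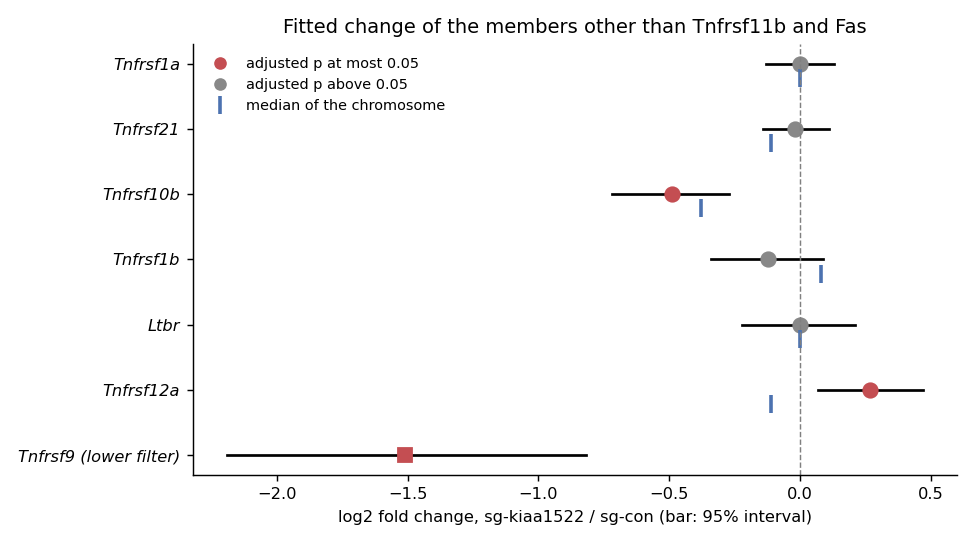
Log2 fold change (sg-kiaa1522 over sg-con) of 7 members with its 95% interval, Tnfrsf9 (square) from the fit with the lower filter, red where the adjusted p is at most 0.05. Blue ticks, not drawn for Tnfrsf9, give the median of the tested genes on the same chromosome, which for Tnfrsf10b on chromosome 14 lies at -0.38, inside its interval.

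Few ligands of the family were expressed by these cells. Of 19 listed ligands, 10 had at most 3 counts in every library, TNFα itself (Tnf) among them, and 3 passed the count filter: Tnfsf12 and Tnfsf9, described above, and App. Lymphotoxin α (Lta) and β (Ltb) had between 3 and 16 counts per library in overlapping groups, and LIGHT (Tnfsf14), another ligand of Ltbr, had 0 counts in all. App, the amyloid precursor protein that binds Tnfrsf21, rose by 0.22 on the log2 scale, from 647 ± 41.9 to 755 ± 19.3 TMM CPM (SD, n = 3, adjusted p = 0.021, edgeR's quasi-likelihood test). That call was lost in the same test without sg-con replicates 2 or 3 (adjusted p = 0.088 and 0.066) or without sg-kiaa1522 replicates 1 or 3 (0.058 and 0.075). Among the 19 other receptors listed, 11 had at most 3 counts in every library, and besides Tnfrsf22 and Tnfrsf23 only Relt passed the filter, at 11.4 ± 2 and 11 ± 0.598 TMM CPM (SD, n = 3, adjusted p = 0.82, edgeR's quasi-likelihood test). Below the filter, Tnfrsf13c had 0, 2 and 5 counts in sg-con and 12, 33 and 13 in sg-kiaa1522. Tnfrsf13b had 16, 9 and 11 counts against 1, 1 and 5. With at least 10 counts in all, Tnfrsf4 and Tnfrsf26 were higher, as were 22.3% of those genes. Their log2 fold changes were 1.14 and 0.90 (adjusted p = 0.041 and 0.026, edgeR's quasi-likelihood test), from at most 39 counts per library. Tnfrsf14 was not called (-0.76, adjusted p = 0.13, same test).

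A further list held genes of adaptors, enzymes and regulators linked to the receptors, and most of those tested were not called. Of 28 listed genes 26 were tested, and 3 fell, 4 rose and 19 were not called, against 26.3% falling and 26.3% rising among all tested genes, with a median log2 fold change of 0.07. Mlkl, the effector of necroptosis, fell from 27.5 ± 0.596 to 19.1 ± 1.59 TMM CPM (SD, n = 3, log2 fold change -0.53, adjusted p = 0.0027, edgeR's quasi-likelihood test), and its upstream kinase Ripk3 had 0 counts in every library. Traf1, an adaptor of TNFR2 and 4-1BB that NFκB itself induces, rose from 12.1 ± 3.1 to 20.6 ± 1.37 TMM CPM (SD, n = 3, log2 fold change 0.77, adjusted p = 0.0085, edgeR's quasi-likelihood test). Traf2 and Casp8 (caspase-8) had log2 fold changes of -0.31 and -0.27, and Ripk1 and Traf6 of 0.62 and 0.33. With the median of the gene's chromosome removed, Casp8 was at -0.062 and Traf6 at 0.19, and without sg-kiaa1522 replicate 1, the library highest in Ripk1, that gene was at 0.37. These 4 passed with all libraries (adjusted p from 0.018 to 0.048, edgeR's quasi-likelihood test) and lost the call without sg-con replicate 2 (0.056, 0.11, 0.09 and 0.11) or without sg-con replicate 3 (0.053, 0.11, 0.08 and 0.13) in the same test. Traf2, Casp8 and Traf6 also lost it without sg-kiaa1522 replicate 3 (0.069, 0.14 and 0.13), Traf2 and Casp8 without sg-kiaa1522 replicate 2 (0.069 and 0.074), and Traf6 without sg-kiaa1522 replicate 1 (0.13).

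In the NFκB core, to which these receptors signal, 3 of 12 genes were lower, 5 were higher and 4 were not called, beside 26.3% lower and 26.3% higher among all tested genes. The median log2 fold change was 0.27, against -0.01 over all tested genes. Those that fell were inhibitors and an upstream kinase: Nfkbie (IκBε) from 28.4 ± 1.14 to 10.6 ± 1.13 TMM CPM, Nfkbia (IκBα) from 75.4 ± 6.5 to 49.4 ± 2.56 TMM CPM, and Map3k14 (NIK, the kinase through which Ltbr and Fn14 act) from 28.7 ± 1.24 to 17.6 ± 1.96 TMM CPM (SD, n = 3, adjusted p = 8.5e-05, 0.0011 and 0.0012, edgeR's quasi-likelihood test). Of the 5 that rose, the largest changes were those of Chuk (IKKα), with a log2 fold change of 1.02, Ikbkg (NEMO) with 0.59 and Rela (p65) with 0.52 (adjusted p = 0.00078, 0.0047 and 0.0025, edgeR's quasi-likelihood test). With the median of its chromosome removed, Rela was at 0.33. The IκB genes are themselves NFκB targets. Both directions occurred within the same pathway, and whether any of these changes differs from those of the receptors was not tested.

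**Figure D5:**
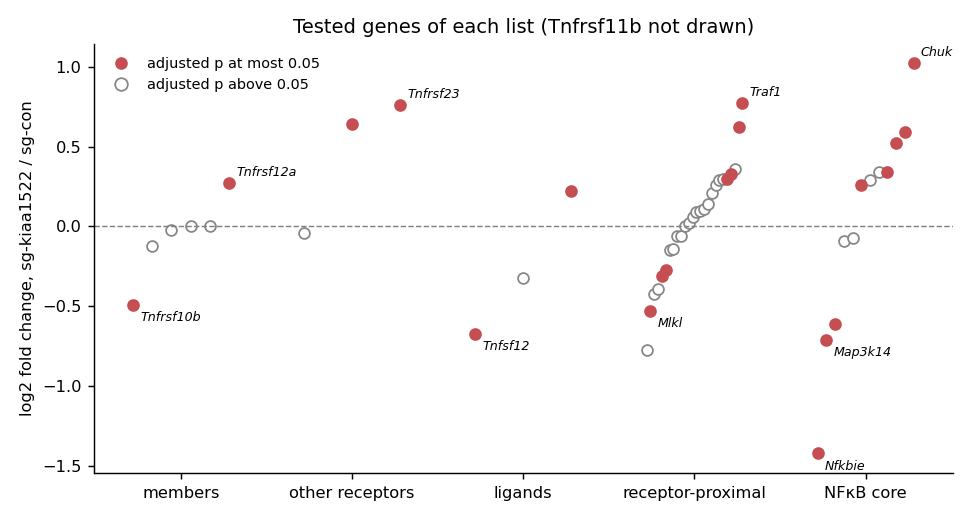
Log2 fold change (sg-kiaa1522 over sg-con) of the tested genes of the members and of the 4 pathway lists (other receptors, ligands, receptor-proximal proteins, NFκB core), 1 point per gene, red where the adjusted p is at most 0.05 and open where it is above. Nfkbie at -1.42 and Chuk at 1.02 are the outermost points drawn, and Tnfrsf11b is left out of the members.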

How the data were processed

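RNA of 3 sg-con and 3 sg-kiaa1522 libraries of 889 cells was analyzed. The authors deposited counts: per their methods and processing notes, reads were trimmed and cleared of rRNA with Seqtk, mapped to GRCm38 with HISAT2 2.0.4, and uniquely mapped fragments were counted per gene with StringTie 1.3.0. The annotation release and the use of strand are not given in the sources used here. Counts were used as deposited, and groups and replicate numbers come from the sample titles.

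Genes with more than 500 counts in all were tested with edgeR 4.0.16 (limma 3.58.1, R 4.3.3): TMM normalization, quasi-likelihood test, no covariate, Benjamini-Hochberg adjustment over 10046 genes. The filter and the threshold (adjusted p of at most 0.05, and 1 or more log2 units where the fold is used) follow the paper's methods. The standard error is the log2 fold change over the root of F, and intervals are 95%. TPM used summed exon lengths of GENCODE M21, to which 34344 of 34745 genes were matched, and log2 TMM CPM used a prior count of 2. The tested genes held 99.5% to 99.6% of each library's counts. Floors of 3 counts cover counting error only.

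The members and gene lists were chosen with earlier results of these data known, and the lists were written from general knowledge. All 9 members are named, with the ligands of the members, up to 3 called genes in each direction of each other list, and the 3 genes most correlated with Tnfrsf11b. Cd27, Tnfrsf11a, Ripk3 and Relt were added for their position or role after their values were seen. Nfkb2, Ikbkb, Tnfrsf4, Tnfrsf13b, Tnfrsf13c, Tnfrsf14 and Tnfrsf26 were also added after their values were seen, to complete their lists. Lists of endothelial, lymphocyte and osteoblast markers were also counted: they summed to at most 1.66, 0.517 and 141 TMM CPM in any library, the last mostly Runx2. The osteoblast markers summed to between 115 and 123 TMM CPM in the sg-con libraries and between 137 and 141 TMM CPM in the others. Runx2 rose by 0.24 on the log2 scale (adjusted p = 0.0097, edgeR's quasi-likelihood test), as did 26.3% of the tested genes at this threshold. The alternatives were DESeq2 1.42.0, edgeR's exact and likelihood ratio tests, RLE and library-size scaling, 2 other count filters, the replicate number as a block, each library left out, the chromosome median removed and another length for TPM. On simulated counts for this comparison (10046 genes), the quasi-likelihood test recovered 110 of 111 genes changed by 1 on the log2 scale and all 89 changed by 2, with 3 false calls. The simulation gave every gene the same dispersion and changed no other genes. It checks that the code runs as meant and does not give the error rate in these libraries. Counts of libraries in the same group differed by 12.3 times the sampling noise or more (chi-square over its degrees of freedom), so none is a copy of another's counts. Because only counting noise is set against them, these values do not show that the libraries came from separate samples.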

Additional observations from a re-analysis of the deposited data

How the results depend on the processing

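The fall of Tnfrsf10b kept its direction and its call under every other test, scaling, filter and left-out library. With the chromosome median removed its log2 fold change was -0.11. With it removed, Tnfrsf1b was at -0.20, Tnfsf9 at -0.21 and Tnfrsf21, which was not called, at 0.10. The number of members called higher counts Tnfrsf11b, whose direction follows from its choice and says nothing of stability. It fell under the count filter without sg-kiaa1522 replicate 2 or 3, and with Tnfrsf12a losing its call in some fits the number of members called higher lay between 0 and 2 with a library left out, that of members lower staying at 1. With at least 10 counts or at least 1 count in all, 2 members were lower, since Tnfrsf9 was then tested (log2 fold change -1.51 in both, adjusted p = 0.0043 and 0.0014, edgeR), and its log2 ratio lay between -1.90 and -1.21 with a library left out. With the fold threshold, 0 members were lower and 1 was higher (Tnfrsf11b), and 1 gene of the pathway lists was called in each direction in place of 7 lower and 12 higher. With a library left out, those numbers lay between 4 and 8 and between 7 and 17. Over all genes, 436 lower and 275 higher genes became 946 and 791 with at least 10 counts, 941 and 767 with at least 1 count, 2639 and 2638 at the adjusted p alone, and between 366 and 456 and between 226 and 338 with a library left out. With the floor of 3 counts set over the group, the 4 counts of Tnfrsf11b in sg-con lie above it, and the value of 199 is then the mean sg-kiaa1522 level over the pooled sg-con level, not a bound. The summed TPM of the members, 900 in sg-con and 1080 in sg-kiaa1522, was 1173 and 1349 with the mean transcript length. These sums are not scaled by TMM, and Tnfrsf1a, level in TMM CPM, was higher in TPM in sg-kiaa1522. Casp8 also lost its call with edgeR's exact test (adjusted p = 0.054), its likelihood ratio test (0.053) and at least 1 count in all (0.055), and Traf6 with library size alone (0.055, edgeR).

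Log2 fold changes next to 0 changed sign. That of Tnfrsf1a was -0.0013 and became 0.002 with DESeq2, 0.0022 with RLE, 0.0055 and 0.004 with the lower filters, and lay between -0.029 and 0.017 with a library left out. That of Ltbr became 0.0018 with at least 10 counts and lay between -0.10 and 0.044 with a library left out, and that of Relt was 0.09 without sg-con replicate 2.

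The replicate numbers are shared between the groups, but deviations of same-numbered libraries correlated at -0.21, -0.051 and -0.17 across genes, which gives no sign of pairing by number. Deviations from a mean of 3 libraries cannot exclude a batch shared by libraries of the same number. With the replicate number as a block, 1 member was higher in place of 2, Tnfrsf12a having an adjusted p of 0.051 (log2 fold change 0.28, edgeR). The block also took the calls of App (adjusted p = 0.064), Traf2 (0.068), Casp8 (0.1) and Traf6 (0.075), and the pathway lists had 5 lower and 9 higher genes in place of 7 and 12. Among the markers it took those of Krt18 (0.13) and Runx2 (0.054). It changed no other call of the genes named here that have a value in both fits. Values with the block were not taken for Tnfrsf9, Sel1l, Wdr5 or Fxr2, nor for the other receptors below the main filter.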
